A study of Mus musculus with 4 samples.

Results

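The genes described here encode proteins of the lipid droplet, the organelle in which cells store triglyceride. They were 10 genes taken by name from the mRNA table, with all listed transcripts of a gene summed: the 5 perilipins Plin1, Plin2, Plin3, Plin4 and Plin5, the droplet fusion protein Cidec, the lipases Pnpla2 and Lipe, and the fat storage-inducing proteins Fitm1 and Fitm2. The table holds 21878 genes and 75959 transcripts, and the 10 genes had 36 of these transcripts. They were measured in C3H10T1/2, a mouse mesenchymal stem cell line that was untreated (replicates 1 and 2) or given 20 μM 5-AZA (5-azacytidine, a cytidine analogue that lowers DNA methylation) for 72 hours and then kept in fresh medium for 21 days (replicates 101 and 102). How long the untreated cells were cultured is not given, so treatment and time in culture cannot be told apart. All samples come from 1 cell line, and the study calls the 2 samples of a group biological repeats without saying whether they were separate cultures.

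Perilipins coat the surface of the droplet. In fat cells Plin1 holds the lipase activator Abhd5 away from Pnpla2 until hormones that raise cAMP release it. Pnpla2 (also called ATGL) then takes the first fatty acid from triglyceride, Lipe (hormone-sensitive lipase) takes the next, and Mgll takes the last. Cidec joins droplets into larger ones and Fitm1 and Fitm2 help droplets bud from the endoplasmic reticulum. Plin1 and Cidec mark fat cells, Plin2 and Plin3 are found in most cells, and Plin5 and Fitm1 are best known from oxidative and striated muscle.

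DNA methylation in mammals is found mainly at CpG dinucleotides, and 5-AZA lowers it by trapping the methyltransferases. The 250 bases before the annotated starts of 4 of the genes are therefore shown, with each CG in capitals. The sequences are those of RefSeq on GRCm38.p6, read 5′ to 3′ in the direction of the gene. All 10 genes were matched by symbol, with 13 start sites in all. These need not be the outermost start of a gene, and other starts were not examined. Both Lipe windows lie inside the Lipe gene, whose outermost base on its minus strand is chr7:25398486. The Plin1 window reaches into the Plin1 gene, whose outermost base is chr7:79732904. The downstream Cidec window lies inside the Cidec gene, whose outermost base is chr6:113435760. Of the windows not shown, those of Plin2, Plin4 and Plin5 also reach into or lie inside their genes. Upstream and downstream below compare only the starts used here. Plin1 and Cidec are shown because both changed more than the other 8 genes on the scale used below. Lipe is shown because its 2 windows differ in CpG, and Pnpla2 as the other lipase.
Plin1 (chr7:79732777-79733026, minus strand): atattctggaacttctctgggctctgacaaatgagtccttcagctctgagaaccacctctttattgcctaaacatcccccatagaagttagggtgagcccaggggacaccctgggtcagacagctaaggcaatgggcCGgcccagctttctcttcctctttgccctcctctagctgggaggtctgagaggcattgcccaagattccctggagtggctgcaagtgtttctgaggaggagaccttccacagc
Cidec, upstream start (chr6:113435761-113436010, minus strand): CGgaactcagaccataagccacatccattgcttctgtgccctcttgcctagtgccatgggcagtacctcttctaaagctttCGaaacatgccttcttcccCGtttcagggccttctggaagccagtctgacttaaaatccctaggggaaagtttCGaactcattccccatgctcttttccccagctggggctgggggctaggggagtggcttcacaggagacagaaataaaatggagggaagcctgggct
Cidec, downstream start (chr6:113434765-113435014, minus strand): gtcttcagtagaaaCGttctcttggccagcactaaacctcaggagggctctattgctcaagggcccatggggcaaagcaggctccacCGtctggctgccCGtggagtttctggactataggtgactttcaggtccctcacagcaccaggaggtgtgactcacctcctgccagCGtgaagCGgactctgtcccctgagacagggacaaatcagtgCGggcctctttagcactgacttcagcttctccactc
Lipe, upstream start (chr7:25395988-25396237, minus strand): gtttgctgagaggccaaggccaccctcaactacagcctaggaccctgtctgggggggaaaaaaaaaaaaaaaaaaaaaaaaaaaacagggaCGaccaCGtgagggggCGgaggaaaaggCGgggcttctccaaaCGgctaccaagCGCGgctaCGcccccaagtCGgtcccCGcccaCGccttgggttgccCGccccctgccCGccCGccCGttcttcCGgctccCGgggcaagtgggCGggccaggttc
Lipe, downstream start (chr7:25390113-25390362, minus strand): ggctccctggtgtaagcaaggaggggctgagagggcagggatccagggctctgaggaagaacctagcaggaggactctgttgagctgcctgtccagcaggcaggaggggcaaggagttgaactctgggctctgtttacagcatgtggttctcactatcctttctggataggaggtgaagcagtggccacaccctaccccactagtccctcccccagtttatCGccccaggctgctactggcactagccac
Pnpla2 (chr7:141454938-141455187, plus strand): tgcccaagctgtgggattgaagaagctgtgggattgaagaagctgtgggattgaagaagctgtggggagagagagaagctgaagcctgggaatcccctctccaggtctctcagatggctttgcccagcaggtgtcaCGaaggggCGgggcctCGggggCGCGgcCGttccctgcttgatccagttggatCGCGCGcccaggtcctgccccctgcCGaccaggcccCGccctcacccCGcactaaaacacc

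The Plin1 window held 1 CpG, and 7.87% of the 32851 RefSeq promoter windows of this length held fewer. The 2 Cidec windows held 4 and 6, near the median of 6 over all windows. The upstream window of Lipe held 18 CpG and the downstream window 1, and that of Pnpla2 held 12. Among the other genes there were 2 CpG before Fitm1, 6 before Plin2 and Plin4, 7 before Plin3, 11 before Fitm2 and 11 and 14 before the starts of Plin5. The windows of the genes called higher below held from 1 to 18 CpG. All 13 windows have this same range, and the 2 Lipe windows alone span it. Which start was in use was not determined, and any relation of CpG number to expression was not tested. Methylation was not measured in this study.

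Searched on both strands, the direct repeat bound by the fat cell factor Pparg (AGGTCA, 1 A, AGGTCA) was in none of the 13 windows and in 0.0152% of all windows. Its unit AGGTCA was in the windows of Plin2 and of 1 Plin5 start, against 14.0% of all windows. CAGCTG, an E-box that MyoD can bind, was before Plin2, Cidec (upstream start) and Fitm1, against 13.0%. GGGCGG, the GC box, was before Plin3, Plin5, Pnpla2, Fitm2 and the upstream start of Lipe, against 32.7%. TATAAA and the C/EBP palindrome TTGCGCAA were in none of the 13, against 12.4% and 0.164%. A repeat also counts as its unit, and the other motifs share no such overlap. A match is a run of letters, not a measured binding site.

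Expression is given in FPKM, a fragment number adjusted for transcript length and sequencing depth, which the authors deposited per transcript and which allows levels of different genes to be set side by side. The summed FPKM of a sample ran from 328410 to 361664, and read counts behind a single value are unknown. Differences were tested with limma on log2(FPKM + 0.1) over the 13199 genes with a mean of at least 0.1 FPKM. A gene was called where the Benjamini-Hochberg adjusted p-value was below 0.05 and the change over 2-fold. Changes on this scale understate those of low genes. The smallest two-sided p-value that an exact permutation of 2 samples against 2 allows is 0.333, so no single gene could be tested by permutation at 0.05.

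The limit on low values kept 9 of the 10 genes. After 5-AZA treatment 6 were called higher and 0 lower. Over all genes tested, 13.1% were called higher and 1.32% lower. Cidec and Fitm1 passed the limit on low values only through the 5-AZA samples and therefore had to differ. Of the 7 tested genes with a mean of at least 0.1 FPKM in the untreated samples, 4 were called higher (Plin1, Pnpla2, Lipe and Fitm2), against 7.41% of all such genes. Plin1 is among these 7 only through untreated replicate 1, and its curated transcripts alone had an untreated mean of 0.0211 FPKM. Without 5-AZA replicate 102, 3 of the 10 genes were called (Cidec, Lipe and Fitm1), against 5.65% of all genes. Both 5-AZA values were above both untreated values in 7 of the 9 tested genes, Cidec and Fitm1 among them, and below them in 2. Over all genes tested this was so for 36.8% and 25.4%.

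**Figure D1:**
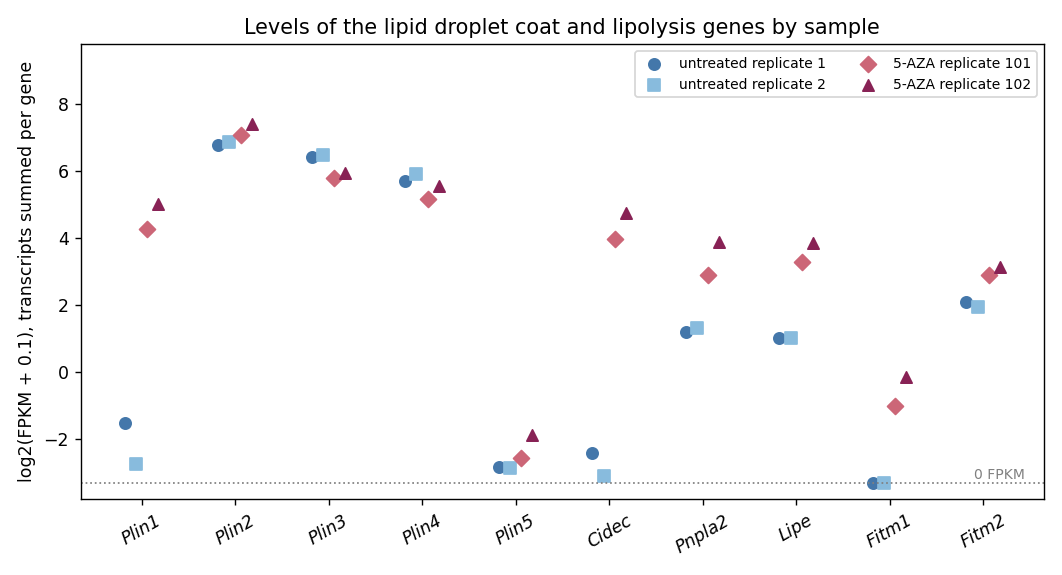
Level of each of the 10 genes in each of the 4 samples, as log2(FPKM + 0.1) with transcripts summed, where each symbol is 1 sample and the dotted line marks 0 FPKM. Plin1 and Cidec lay between 0.0168 and 0.249 FPKM in the untreated samples and between 15.6 and 32.8 FPKM in the 5-AZA samples, while Plin2, Plin3 and Plin4 lay between 36.1 and 171 FPKM in every sample.

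Among the coat proteins, the fat cell perilipin Plin1 (chr7:79721164-79732904, minus strand) was near 0 in untreated cells. It was listed at 0.249 and 0.0493 FPKM in untreated replicates 1 and 2 and at 19.2 and 32.8 FPKM in 5-AZA replicates 101 and 102. The groups were far apart, and the 2 samples within each group also differed. The mean of Plin1 rose to 26.0 ± 9.59 FPKM, from 0.149 ± 0.141 FPKM without treatment (SD, n = 2). This was a log2 change of 6.79 (standard error 0.40, adjusted p = 6.75e-06, limma), which placed it at rank 35 of the 13199 genes. With only 5-AZA replicate 102 or only 101 left in its group, the log2 change was 7.17 and 6.40 and the adjusted p (limma) rose to 0.0579 and 0.0657.

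Plin2 (chr4:86626910-86670217, minus strand), the perilipin of most non-fat cells, had the highest level of the 10 genes in every sample. Its values were 109 and 117 FPKM in the untreated samples and 135 and 171 FPKM in the 5-AZA samples, above 97.0% of the genes tested on average. The groups did not overlap, and the log2 difference was 0.42 (standard error 0.12, adjusted p = 0.0379, limma), below the 2-fold limit. Over 12 alternative settings the adjusted p (limma) of Plin2 ran from 0.0279 to 0.205. The symbol covers a second RefSeq gene identifier, 101055843, which held at most 0.627 FPKM of this sum.

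Plin3, a coat protein that moves between the cytosol and new droplets, was lower after 5-AZA treatment. It was at 86.7 and 89.8 FPKM in the untreated samples and at 55.8 and 61.9 FPKM in the 5-AZA samples. Without overlap between the groups, the log2 difference was -0.59 (95% interval -0.81 to -0.36, adjusted p = 0.00267, limma), under 2-fold and so not called. Plin4, a perilipin abundant in white fat and known to coat small droplets, was also at the lower level after treatment, with 52.8 and 60.3 FPKM against 36.1 and 47.0 FPKM. Its log2 difference was -0.45 (95% interval -0.77 to -0.13, adjusted p = 0.0457, limma). Over the alternatives that kept all 4 samples its adjusted p (limma) ran from 0.0179 to 0.241. The difference was negative in each of the 12 alternatives. Without overlap, only scaling by the median or by quantiles, or curated transcripts alone, could have changed its sign. The mesenchymal genes Vim and Col1a2, coding for an intermediate filament and a collagen chain, had log2 differences of -0.87 and -0.37 in the same samples. They are the highest in level of 6 mesenchymal markers, of which 3 were lower and 3 higher after treatment. The median log2 difference of the 6 was -0.04, and that of Thy1 was 3.98. Any relation of these genes to the lower perilipins was not tested.

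Plin5, which couples droplets to mitochondria in oxidative tissue, had the lowest level of the 10 genes in both 5-AZA samples. It was listed at 0.0414 and 0.0386 FPKM in the untreated and at 0.0703 and 0.170 FPKM in the 5-AZA samples. The 5-AZA values were the higher ones, but the mean over the 4 samples was under 0.1 FPKM and Plin5 was not tested. Plin4 (chr17:56100587-56109948) and Plin5 (chr17:56111597-56117606) lie 1648 bases apart on the minus strand of chromosome 17, and Plin3 (chr17:56278962-56290511, minus strand) lies 161355 bases from Plin5.

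The make-up of the perilipin mRNAs was set beside their summed amount. The sum was 249 and 267 FPKM in the untreated samples and 246 and 313 FPKM in the 5-AZA samples, which overlap. Plin1 made up 0.0592% ± 0.0576 of this sum in untreated cells and 9.15% ± 1.89 after treatment (SD, n = 2). Plin2 went from 43.8% ± 0.153 to 54.7% ± 0.124, Plin3 from 34.2% ± 0.779 to 21.2% ± 2.04 and Plin4 from 21.9% ± 0.991 to 14.9% ± 0.263. The shares of the 2 groups did not overlap for any of the 5 perilipins. The shares of a sample add up to the whole and so depend on each other, and that of Plin5 rests on values near 0. In FPKM, both 5-AZA values were above both untreated values in 36.8% of all genes tested and below them in 25.4%. The ratio of Plin2 to Plin3 was 1.26 and 1.30 in the untreated samples and 2.42 and 2.76 in the 5-AZA samples. These shares are descriptions of 4 samples and were not tested.

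**Figure D2:**
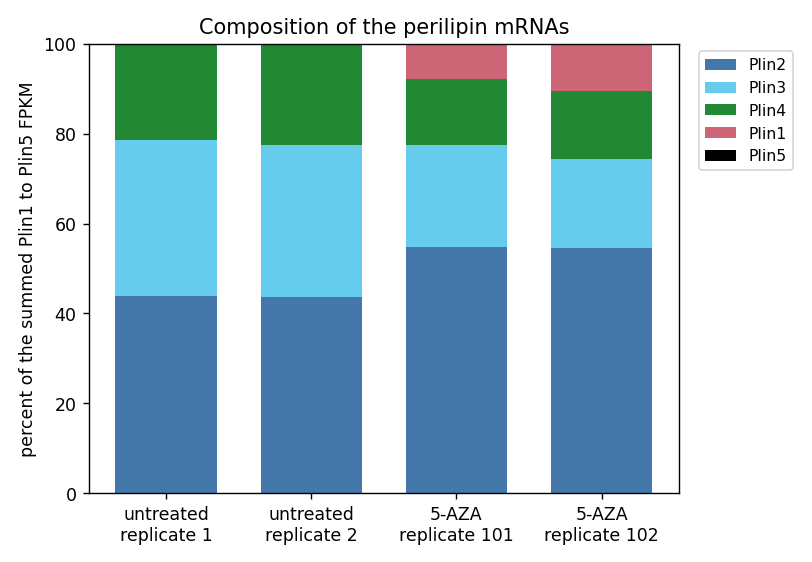
Percentage of the summed FPKM of Plin1 to Plin5 held by each perilipin in each sample, 1 stacked bar per sample. The Plin1 part is visible only in the 5-AZA samples, at 7.82% and 10.5%, and Plin5 is at or below 0.0543% in every sample.

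Cidec (chr6:113424634-113435760, minus strand), the protein through which fat cell droplets exchange lipid and fuse, changed by more than the other genes in the fit used here, but by less than Plin1 with a pseudocount of 1 FPKM (log2 4.35 against 4.51) or with curated transcripts alone (6.96 against 7.54). It was at 0.0881 and 0.0168 FPKM in the untreated samples and at 15.6 and 26.9 FPKM in the 5-AZA samples. The groups were far apart, with means of 0.0525 ± 0.0504 and 21.2 ± 8.03 FPKM (SD, n = 2). Cidec rose by a log2 change of 7.12 (standard error 0.33, adjusted p = 2.02e-06, limma) and rank 22 among the genes tested. It passed the limit on low values only through the 5-AZA samples and therefore had to differ. Cidec was called in each of the 12 alternatives. The ratio of Plin1 to Cidec was 1.24 and 1.22 in the 5-AZA samples, although both levels differed between these. In the untreated samples it was 2.83 and 2.93, but there it divides values of at most 0.249 FPKM. The curated Plin1 transcripts summed to 3.39e-15 FPKM in untreated replicate 1 and 0.0421 FPKM in untreated replicate 2. The likeness of the 2 untreated ratios therefore rests on how reads near 0 were assigned to transcripts.

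The lipases Pnpla2 and Lipe were both present in untreated cells and rose. Pnpla2 (chr7:141455188-141460743, plus strand) was at 2.2 and 2.41 FPKM without and at 7.40 and 14.6 FPKM with treatment, a log2 change of 2.13 (standard error 0.28, adjusted p = 7.10e-04, limma). Both 5-AZA samples were higher than both untreated ones, with replicate 102 at 1.97 times replicate 101. With 5-AZA replicate 102 left out the log2 change of Pnpla2 was 1.64 and the adjusted p (limma) 0.0553, and with no limit on low values the adjusted p (limma) was 0.0843. Lipe (chr7:25379527-25398486, minus strand) was at 1.91 FPKM in each untreated sample and at 9.75 and 14.4 FPKM in the 5-AZA samples, a log2 change of 2.57 (standard error 0.20, adjusted p = 3.58e-05, limma). Lipe was called in each of the 12 alternatives, and the ratio of Pnpla2 to Lipe stayed between 0.759 and 1.26 in the 4 samples.

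The fat storage-inducing genes were at different levels. Fitm2 (chr2:163468703-163472629, minus strand), expressed in most tissues, was at 4.17 and 3.74 FPKM in the untreated and at 7.37 and 8.78 FPKM in the 5-AZA samples. The groups did not overlap and the log2 change was 1.01 (standard error 0.16, adjusted p = 0.00209, limma), just past the 2-fold limit. It was 0.93 without untreated replicate 2 and 0.88 without 5-AZA replicate 102 (adjusted p = 0.10, limma), and without 5-AZA replicate 101 it was 1.13 (adjusted p = 0.0735, limma), so Fitm2 was not called in any of these. Scaling by the median or by quantiles also took it under 2-fold, to 0.90 and 0.88. Fitm1 (chr14:55575674-55576952, plus strand), the muscle form, was listed at 0 in both untreated samples and at 0.394 and 0.808 FPKM in the 5-AZA samples. It was called higher (adjusted p = 0.00162, limma), and no fold is given against a group listed at 0, where the log2 value is set by the pseudocount. It was not called with a pseudocount of 1 FPKM, which took the change under 2-fold, or with no limit on low values (adjusted p = 0.0510, limma).

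**Figure D3:**
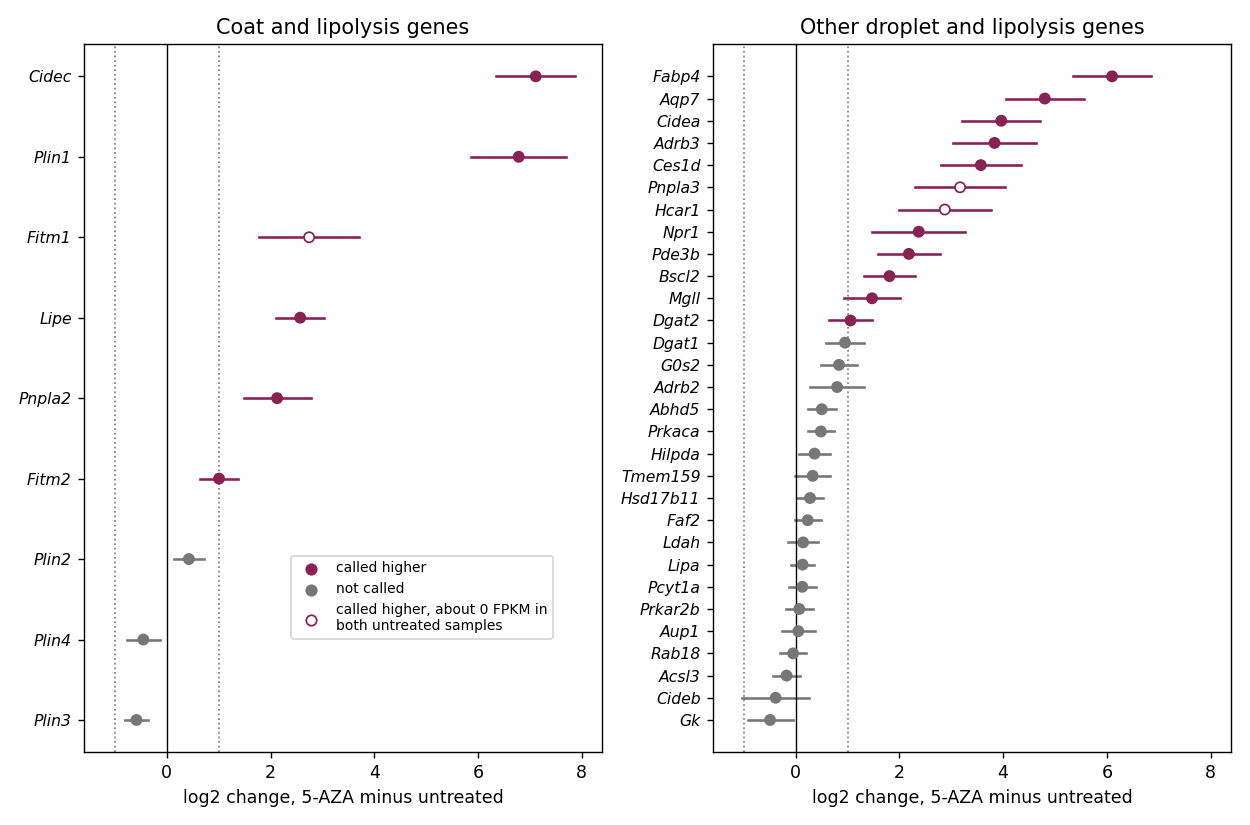
Log2 change of expression on the log2(FPKM + 0.1) scale, 5-AZA minus untreated, for the 9 tested coat and lipolysis genes (left) and for 30 other droplet and lipolysis genes (right), as points with 95% intervals from limma, dotted lines at 2-fold, purple for genes called higher and open points for genes at about 0 FPKM in both untreated samples, whose position is set by the pseudocount. Cidec and Plin1 stand apart from the other members at 7.12 and 6.79, and Plin3 and Plin4 lie left of 0. Positions of filled points with low untreated levels also depend on the pseudocount. With pseudocounts of 1 and 0.01 FPKM, Cidec was at 4.35 and 8.64 and Plin1 at 4.51 and 7.66.

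By transcript, the changes of Cidec, Plin1 and Lipe were spread over several annotated forms. Fitm1 and Fitm2 have 1 transcript each, with the same values as the gene. They were called as genes but not as transcripts (adjusted p = 0.124 and 0.0799, limma). Of the 36 transcripts 28 were tested, and 8 were called higher and 0 lower, against 2.1% and 0.262% of the 35557 transcripts tested. Of these 8, 5 (3 of Cidec and 2 of Plin1) had an untreated mean below 0.1 FPKM and passed the limit only through the 5-AZA samples. Among the 21 tested transcripts at or above that level 3 were called, 2 of Lipe and 1 of Pnpla2, against 1.29% of all such transcripts. The highest Cidec transcript, NM_001301295.1, was at 10.4 ± 3.42 FPKM after treatment (SD, n = 2). For Plin1 the curated NM_001113471.1 and NM_175640.2 were called and the predicted XM_011250776.2 was not (log2 change 3.99, adjusted p = 0.0563, limma). XM_011250776.2 held all of the 0.249 FPKM of Plin1 in untreated replicate 1 but 14.5% of the level in untreated replicate 2. In the 5-AZA samples it held 14.6% and 9.68%, and NM_001113471.1 held 60.7% and 61.9%.

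The level of Lipe was divided over several forms. NM_001039507.2 went from 0.877 ± 0.0150 to 6.44 ± 3.43 FPKM and XM_006539572.3 from 0.536 ± 0.0571 to 4.36 ± 0.229 FPKM (SD, n = 2), and both were called (adjusted p = 0.0468 and 0.0185, limma). NM_010719.5 went from 0.486 ± 0.0593 to 1.01 ± 0.0732 FPKM and was not called (log2 difference 0.92, adjusted p = 0.432, limma). Its part of the Lipe level was 25.4% in untreated and 8.35% in treated cells. The difference between the forms was not tested. For Pnpla2, NM_001163689.1 held 98.4% and 99.4% of the level in the 2 groups.

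Of the 10 Plin4 transcripts, 8 had a lower mean after treatment, 2 a higher one and 0 were called. The predicted XM_011246552.2 held 49.6% of the Plin4 level in untreated cells and 54.1% in treated cells. It is not among the transcripts of Plin4 in the RefSeq table for GRCm38.p6, and without it the summed means were 28.5 and 19.0 FPKM. With curated transcripts alone Plin4 made up 4.37% and 2.57% of the perilipin sum in the 2 groups. The values of XM_011246552.2 itself overlapped between the groups, at 24.5 and 31.6 FPKM against 20.1 and 24.9 FPKM.

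**Figure D4:**
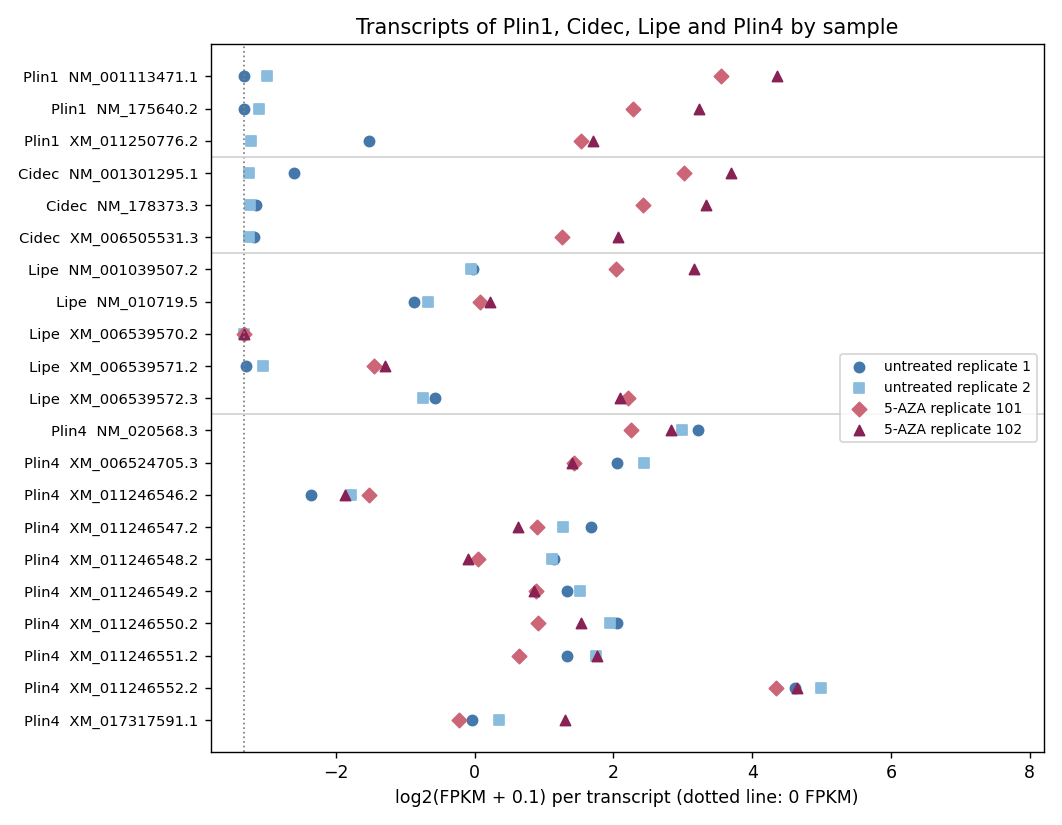
Level of each transcript of Plin1, Cidec, Lipe and Plin4 in each of the 4 samples, as log2(FPKM + 0.1), 1 transcript per row and 1 symbol per sample, with a dotted line at 0 FPKM. All 3 Cidec and all 3 Plin1 transcripts lie to the right in both 5-AZA samples, and XM_011246552.2 of Plin4 is the highest of the Plin4 rows at 20.1 to 31.6 FPKM.

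Other RNAs at these genes were few. One circRNA, circRNA_1872 of Plin3 (chr17:56281407-56284430), was listed, at 0.0215 RPM (reads scaled to sequencing depth) in untreated replicate 1 and at 0 in the other samples. Of the lncRNAs, 17 overlapped 6 of the 10 genes, 14 of them on the opposite strand, and 7 were listed at 0 in every sample. A single one reached 1 FPKM. NONMMUT041003.2 is a transcript of 1 exon and 2602 bases on the same strand as Fitm2 (chr2:163466380-163468981). It covers the end of that gene, at chr2:163468703, but lies mostly beyond it. It was at 3.99 and 3.79 FPKM in the untreated and at 6.87 and 8.91 FPKM in the 5-AZA samples, close to the values of Fitm2 itself, and reads of the 2 cannot be told apart where they overlap. The 4 lncRNAs on the opposite strand of Cidec were listed at 0 in all samples, also where Cidec was high.

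A wider list held 32 other genes of lipolysis and of the droplet, 30 of them tested. In this list 12 genes were called higher and 0 lower. Over all genes tested 13.1% and 1.32% were so called. The median log2 change was 0.65, against 0.05 over all genes tested. Without 5-AZA replicate 101 or 102, 7 and 5 genes of the list were called higher, against 7.07% and 5.65% of all genes. Of the 12, 7 had an untreated mean below 0.1 FPKM. Among the 23 tested genes at or above that level, 5 were called (Mgll, Pde3b, Fabp4, Bscl2 and Dgat2), against 7.41% of all such genes.

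Among the genes that control lipolysis 9 of 17 tested were called, and 3 of the 11 with an untreated mean of at least 0.1 FPKM. The shares called higher over all genes were 13.1% and 7.41%. Fabp4, which carries fatty acids in fat cells, was at 16.3 ± 9.38 FPKM without and 1041 ± 218 FPKM with treatment (SD, n = 2) and rose by a log2 change of 6.10 (adjusted p = 4.81e-06, limma). The beta-3 adrenergic receptor Adrb3, through which noradrenaline starts lipolysis in fat cells, was at 0.0130 and 0 FPKM in the untreated and at 1.16 and 1.73 FPKM in the 5-AZA samples. The glycerol channel Aqp7 was at 0.0626 and 7.01e-06 FPKM in the untreated and at 3.23 and 3.71 FPKM in the 5-AZA samples. Its log2 change of 4.80 depends on the pseudocount. Pde3b, which breaks down cAMP, and Mgll, the monoglyceride lipase, rose by 2.18 and 1.47 on the log2 scale. The lipases Pnpla3 and Ces1d reached means of 0.819 and 1.75 FPKM, the lactate receptor Hcar1 0.649 FPKM and the natriuretic peptide receptor Npr1 0.561 FPKM. Adrb3, Aqp7, Pnpla3, Ces1d, Hcar1 and Npr1 passed the limit on low values only through the 5-AZA samples and therefore had to differ.

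The direct partners of Pnpla2 were not among those called. Its activator Abhd5 was at 13.5 and 12.8 FPKM in the untreated and at 17.8 and 19.5 FPKM in the 5-AZA samples, a log2 difference of 0.50 (adjusted p = 0.0135, limma). Its inhibitor G0s2 was at 44.3 and 50.7 against 72.3 and 99.1 FPKM, a log2 difference of 0.83 (adjusted p = 0.00402, limma). For both the groups did not overlap, and both differences were under 2-fold, below the 2.13 of Pnpla2 itself. These differences between genes were not tested.

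Of 13 tested genes of droplet assembly and surface 3 were called, and 2 of the 12 with an untreated mean of at least 0.1 FPKM. The shares called higher over all genes were 13.1% and 7.41%. The difference between the 2 roles was not tested. Bscl2 (seipin), which shapes new droplets, was at 3.05 ± 0.216 FPKM without and 11.2 ± 3.37 FPKM with treatment (SD, n = 2) and rose by a log2 change of 1.81 (adjusted p = 3.41e-04, limma). Dgat2, which makes triglyceride, had a log2 change of 1.06 (adjusted p = 0.00338, limma). Cidea, the relative of Cidec known from brown fat, was at 0.0394 and 0 FPKM in the untreated and at 1.73 and 1.75 FPKM in the 5-AZA samples. Its level after treatment was well below the 21.2 FPKM of Cidec. The 10 tested genes of this role that were not called had log2 differences from -0.39 (Cideb) to 0.95 (Dgat1, which also makes triglyceride, adjusted p = 0.00249, limma).

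Most markers of fat cells and of skeletal muscle were higher after treatment, like the 6 genes called higher and unlike Plin3 and Plin4. In bulk RNA, more cells of a type cannot be told apart from more RNA per cell. Called higher over all genes were 13.1% of those tested and 7.41% of those with an untreated mean of at least 0.1 FPKM. The summed FPKM of 8 fat cell markers was 26.1 and 23.3 in the untreated samples and 258 and 358 in the 5-AZA samples, with 6 of 7 tested called higher and 5 of the 6 with an untreated mean of at least 0.1 FPKM. Lpl (lipoprotein lipase) went from 2.55 to 76.7 FPKM and Adipoq (adiponectin) from 3.78 to 105 FPKM on average, while Lep (leptin) reached at most 0.0274 FPKM. The summed FPKM of 8 skeletal muscle markers was 1.44 and 1.01 in the untreated and 721 and 1117 in the 5-AZA samples, led by Mylpf and Acta1. All 8 were called, but 5 of them passed the limit on low values only through the 5-AZA samples. For 5 cardiac markers, with Tnni3 and Myh6 highest and Nppa and Myl7 listed at 0 and both tested genes called (Myh6 having passed the limit only through the 5-AZA samples), the sums were 0.321 and 0.370 against 1.62 and 3.51 FPKM. For 4 brown fat markers, led by Dio2 and Cidea, which passed the limit only through the 5-AZA samples and were called, they were 0.0394 and 0.00484 against 4.33 and 4.01 FPKM, with Ucp1 at most at 0.0230 FPKM. For 5 macrophage markers, led by Cd68, which was called higher, and Lyz2, which was not, they were 2.13 and 3.20 against 3.20 and 5.19 FPKM, with Adgre1 at 0. For 6 mesenchymal markers, led by Vim and Col1a2, they were 3208 and 3270 against 2037 and 2283 FPKM, with Thy1 called higher and the other 5 not called. The part of these cell types in the levels of the 10 genes was not tested.

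The 2 samples given 5-AZA differed in the same direction for all 10 genes. The value in replicate 102 over that in replicate 101 ran from 1.11 for Plin3 to 2.42 for Plin5, with a median of 1.59. It was 1.11 at the median of all genes tested and 1.21 at that of the genes called higher. For the fat cell markers tested it ran from 1.07 to 1.71 and for the skeletal muscle markers from 1.45 to 2.39. The part of this difference in the results was not tested.

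Likeness of pattern was measured as the distance between log2 values over the 4 samples after each gene was centred on its mean. The genes nearest to Plin1 among 13198 others were Tmem8c (distance 0.13), Tnnc1 (0.35) and Ndufa4l2 (0.49). Those nearest to Fitm1 were Cyct (0.05), Gm6890 (0.11) and Cln3 (0.12). Fitm1 and these genes were at 0.0124 FPKM or less in the untreated samples, where the pseudocount sets the log2 values. All distances rest on the same 4 samples in 2 groups.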

How the data were processed

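RNA depleted of ribosomal RNA from 2 untreated and 2 5-AZA-treated C3H10T1/2 samples was sequenced with a stranded kit. The authors deposited FPKM values per mRNA and lncRNA transcript, and RPM values per circRNA. Trimmomatic, HISAT2, Bowtie2 2.2.9 and eXpress 1.5.1 are named in the submitters' processing notes, without their roles, and eXpress divides reads among transcripts by estimation. The notes name the build mm9, but of 2131 circRNA host genes compared, 2112 had a listed position within the RefSeq gene on GRCm38.p6 (tolerance 2000 bases), and coordinates are given on that build. Read counts behind FPKM are unknown, so the number of samples limits the precision, and p-values measure only the spread between these samples, which may be technical. The differential test named in the study's methods needs counts, so limma 3.58.1 (lmFit, eBayes with trend) in R 4.3.3 with the package data.table (version 1.17.8) was fitted to log2(FPKM + 0.1) of gene sums and of transcripts, with Benjamini-Hochberg adjustment over all features tested. The fit was tested on simulated data. The 10 genes, the other lists and the markers were chosen with earlier results of these data known. Named were the 10 genes, list genes that were called with Abhd5, G0s2 and Cidea, the 2 highest markers of a list and the 3 genes nearest to Plin1 and Fitm1 in pattern. Further genes given by name (Cideb, Dgat1, Lep, Ucp1, Nppa, Myl7, Adgre1 and Thy1) were chosen after their values were seen. Other pseudocounts, limits on low values and scalings, a fit without trend, curated transcripts alone and leaving out each sample were tried as alternatives.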

Additional observations from a re-analysis of the deposited data

How the results depend on the processing

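Each of the 9 tested genes kept its direction in every alternative that gave a value, and Fitm1 gave none with a mean of at least 1 FPKM. The groups did not overlap for any of the 9. Only scaling by the median or by quantiles, or curated transcripts alone, could therefore have changed a direction. The cause of the differences below was not tested. Over all genes, 1724 were called higher and 174 lower, against 875 and 86 with a pseudocount of 1 FPKM and 1041 and 886 after quantile normalization, which moved the median log2 change of all genes from 0.05 to -0.12. With a mean of at least 1 FPKM 845 were called higher, and without a limit on low values 83 were called lower. With 1 sample left out, 733 (without 5-AZA replicate 102) to 1617 were called higher and 52 (without 5-AZA replicate 101) to 184 lower. Of the 10 genes, 3 (without 5-AZA replicate 102) to 6 were then called higher, and of the wider list 5 to 13. In that list 6 were called higher with a mean of at least 1 FPKM, and 1 lower after quantile normalization. Where 1 sample remained in a group, it was assumed to vary like the other group.

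The log2 change with 1 sample left out ran from 6.17 to 7.40 for Plin1, from 1.64 to 2.61 for Pnpla2 and from 0.88 to 1.13 for Fitm2. The log2 values of Fitm1 are set by the pseudocount, since its untreated values are 0, and are no fold. With no limit on low values Pnpla2 (2.13) and Fitm1 (2.74) were not called. With a pseudocount of 1 FPKM Fitm1 (0.67) and Fitm2 (0.87) fell under 2-fold, as did Fitm2 after median centring (0.90) and quantile normalization (0.88). With curated transcripts alone, the shares of the perilipin sum in untreated and 5-AZA cells were 50.7% and 60.9% for Plin2, 44.9% and 26.5% for Plin3 and 4.37% and 2.57% for Plin4, and that of Plin5 in untreated cells was 0.00840%. No paired analysis was possible because the groups share no replicate numbers (1 and 2 against 101 and 102). Read depth behind single FPKM values is unknown, and 2 samples a group limit the precision.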
